A study of Mus musculus with 7 samples.

Results

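The 7 bulk RNA-seq libraries of the study were made from cells sorted from mouse skin on day 36, and they fell into a pair of sets that the labels do not name. The sets were chosen by the level of Ptprc, the gene for CD45, a phosphatase on the surface of nearly all leukocytes. Levels are given in ppm, parts per 1000000 of a library's column total. Libraries with Ptprc under 100 ppm are called CD45-poor here, and they were 3 of 7: control 4F, Zfp750_KO 1M and Zfp750_KO 2M. Libraries at or above 100 ppm are called CD45-rich, and they were 4 of 7: control 4M, control 7F, Zfp750_KO 3F and Zfp750_KO 6F. Both genotypes were present in each set.

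Skin cells that carried the red reporter tdTomato were collected from 3 control and 4 Zfp750 knockout mice. All mice carried Lrig1-CreER or Lrig1-CreERT2 +/-, a Cre recombinase that 4-hydroxytamoxifen switches on and that is driven by Lrig1, and all pups were given 4-hydroxytamoxifen, on days 4 to 7 or days 5 to 8. Knockouts were Zfp750 fl/fl (written ZNF750 in the genotype labels), 2 controls were wt/fl and 1 was wt/wt. Rosa26 was +/- in 6 mice and -/- in 1 knockout. The column names give the genotype, a number and the letter M or F, but they do not tie a column to a single mouse of the labels, so the wt/wt control and the Rosa26 -/- knockout cannot be placed in a set. Zfp750 can be lost only in cells in which Lrig1 drove the recombinase and in their progeny. Which cell types of the sorted libraries were targeted in this way was not measured.

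Lrig1 marks stem cells of the junctional zone, the stretch of the hair follicle next to the sebaceous gland, and the reporter stays on in all descendants of a labelled cell. Dermis around the follicle holds fibroblasts, which make collagen, and resident leukocytes: macrophages, dendritic cells, mast cells and T cells, with Langerhans cells in the epidermis. Leukocytes arise from blood stem cells and carry CD45, whereas keratinocytes, fibroblasts and muscle cells do not. In bulk RNA, fewer cells of a type and less RNA per cell cannot be told apart, so every level below is a share of a library's RNA.

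Ptprc (ENSMUSG00000026395, chromosome 1) was 4.46 ppm in control 4F, 40.1 in Zfp750_KO 1M and 39.2 in Zfp750_KO 2M. It was 474 in control 4M, 700.3 in control 7F, 1247 in Zfp750_KO 3F and 982 in Zfp750_KO 6F. The highest CD45-poor library therefore stood at 40.1 and the lowest CD45-rich library at 474, and no library lay between them. Means were 27.9 ± 20.3 (SD, n = 3) and 851 ± 336 (SD, n = 4), a 30.5-fold difference that the choice of the sets fixed. Even the lowest value stood for about 76.0 reads. On each side the knockouts had more Ptprc than the controls.

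The steps between low deposited values put the libraries at about 9.09 to 17.1 M reads (M, 1000000), with 12.9 to 17.1 M in the CD45-poor and 9.09 to 15.2 M in the CD45-rich libraries. Genes at 1 ppm or more numbered 15897 to 16483 in the CD45-poor and 17805 to 18198 in the CD45-rich libraries. Sex-linked genes matched the letters in 6 libraries. Control 4M did not match a single sex: Xist, the X inactivation RNA of female cells, was at 278 ppm and Ddx3y, a Y gene, at 67.9, against 4142 to 5175 and at most 0.401 in the other CD45-rich libraries. In Zfp750_KO 1M and 2M, the other M libraries, Xist was at 0.466 and 0.0733 and Ddx3y at 70.9 and 74.3. Counts of genes are therefore also given without control 4M. On the CD45-poor side the only control was F and both knockouts were M, so genotype and sex cannot be told apart there. Genes of long noncoding RNAs took 3.72% to 4.56% of the CD45-rich and 1.66% to 2.55% of the CD45-poor totals, and genes annotated only as awaiting experimental proof took 0.907% to 1.18% against 0.326% to 0.432%. The part of these shares in the differences between the sides was not tested.

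Across the 18140 genes that reached 1 ppm in at least 3 libraries, Ptprc left out, 939 genes (5.18%) were higher in every CD45-rich than in every CD45-poor library with a log2 difference of at least 2. In the other direction there were 185 such genes (1.02%). Genes that meet both conditions are called apart below. With no demand on size, 30.8% of genes did not overlap with CD45-rich higher and 13.8% with CD45-poor higher. Since the sides were drawn from the same libraries, these counts are a description without a test, and nothing is read from the shares themselves. Differences are on the scale of log2(ppm + 1), which understates the change of genes with low levels, and the median over all tested genes was 0.20 on this scale. It was -0.02 with the values as deposited, so small differences depend on the scaling, and the counts of 939 and 185 became 784 and 303 on that scale and 811 and 263 with upper quartile scaling. Without control 4M the count of 939 became 1054, and without control 4F the count of 185 became 320. A log2 difference of 2 between a single CD45-poor and a single CD45-rich library was seen in 1206 to 2157 genes, compared with 14 to 413 genes between libraries of the same side.

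The first principal component of the log2 levels held 69.3% of the variance and followed the sides, from -88.6 to -79.2 in the CD45-poor and from 41.1 to 88.6 in the CD45-rich libraries. The second, with 13.4%, followed the genotype, from 31.0 to 40.7 in the controls and from -30.5 to -24.2 in the knockouts. The difference between the sides was thus the larger of the pair in these libraries. Of the 939 genes apart and higher in CD45-rich, 744 had a log2 difference of at least 2 within the controls and within the knockouts alike, and 545 within the F and within the M libraries alike. Of the 185 in the other direction, 60 kept that size within both genotypes and 57 within both letters. All these genes were chosen by their difference between the sides in these same libraries, so the direction within each subset was fixed. The size within a subset was not independent of that choice, so these counts are a description and not a test. The controls and the F libraries shared the same single CD45-poor library. The only CD45-rich M library was the control whose sex-linked genes did not match a single sex.

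**Figure D1:**
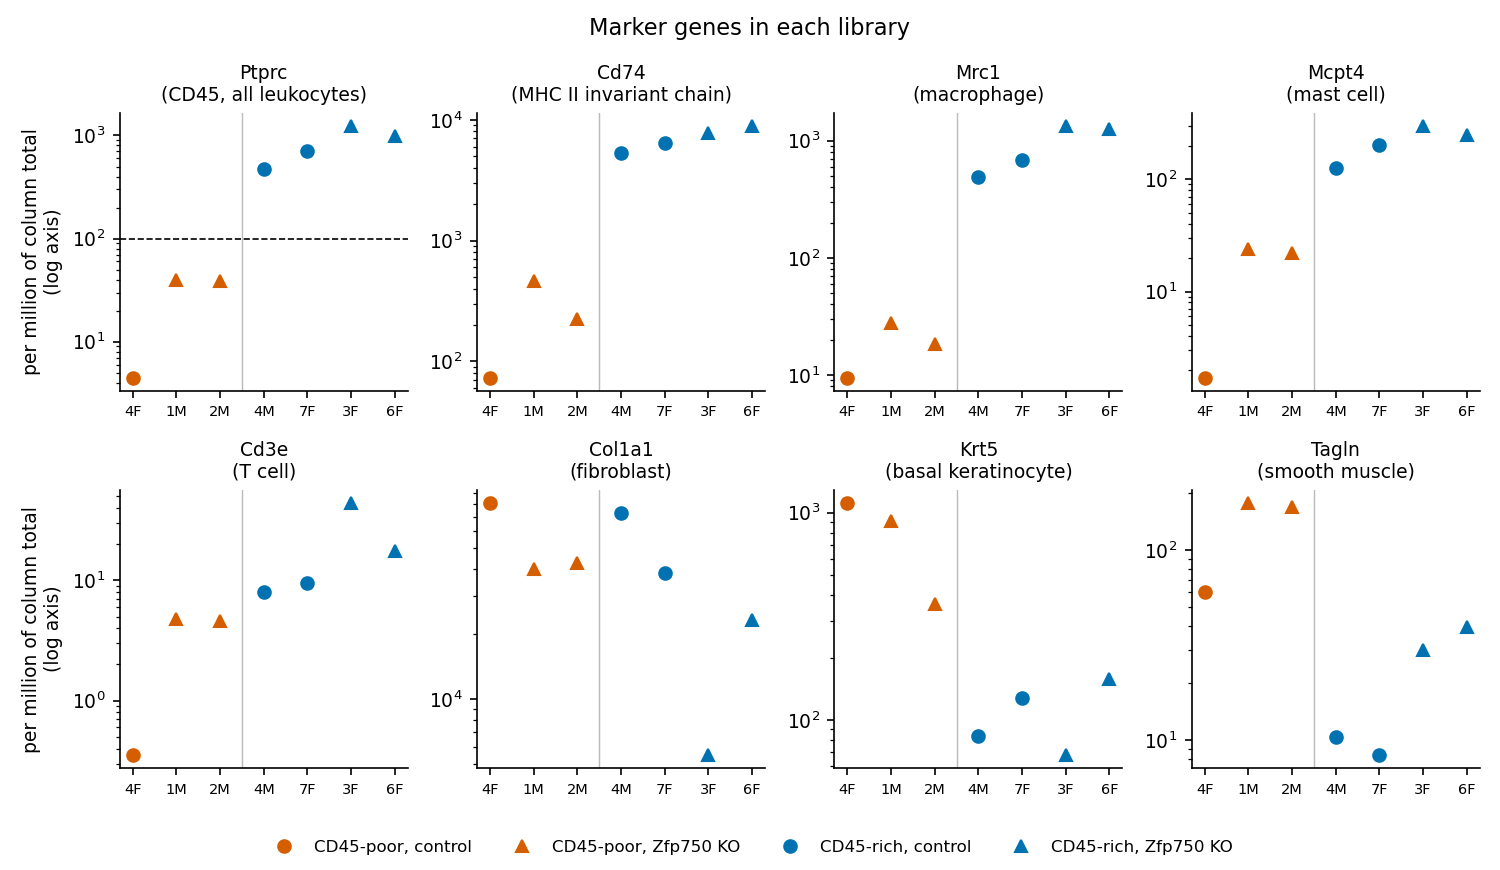
Level of 8 marker genes in each library, in ppm on a log axis. Orange symbols are CD45-poor and blue symbols CD45-rich libraries, circles are controls and triangles Zfp750 knockouts, and the dashed line is the Ptprc level of 100 ppm that set the sides. Ptprc, Cd74, Mrc1, Mcpt4 and Cd3e are higher in every blue library, Krt5 and Tagln in every orange library, and Col1a1 overlaps.

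Genes shared by all leukocytes moved together. Of the 22 genes of the general leukocyte list, which does not hold Ptprc, 21 were apart and higher in CD45-rich and none in CD45-poor, and the median log2 difference was 4.02. Their summed level was 79.6 to 389 ppm in the CD45-poor and 2381 to 5931 ppm in the CD45-rich libraries, 14.9-fold in the means. Laptm5, a lysosomal membrane protein of blood cells, was at 4.51, 45.9 and 37.1 ppm in control 4F, Zfp750_KO 1M and Zfp750_KO 2M. In control 4M, control 7F, Zfp750_KO 3F and Zfp750_KO 6F it was at 377, 485, 802 and 650.4 (log2 difference 4.70). Dock2, which drives leukocyte migration, had the largest difference of the list at 4.91. Evi2a had the smallest difference among those apart, at 2.09, and Arhgdib was the only member that overlapped, at 16.3 to 79.0 ppm in CD45-poor and 73.2 to 145 in CD45-rich. No member was at 0 in any library, so leukocyte RNA was detected in all 7.

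Macrophages take up debris and microbes, and most of their genes were higher in CD45-rich. Of 26 macrophage and monocyte genes, 23 were apart and higher in CD45-rich and none in CD45-poor (median 3.98). Summed levels were 209 to 671 ppm in CD45-poor and 4748 to 10872 in CD45-rich libraries. Mrc1, the mannose receptor, was at 9.44, 27.6 and 18.5 ppm in the CD45-poor libraries in the order above, and at 492, 686, 1345 and 1259 in the CD45-rich ones. Adgre1, which encodes the macrophage antigen F4/80, was at 1.76, 8.15 and 8.06 against 152, 194, 281 and 247. All 4 CD45-rich libraries exceeded all 3 CD45-poor libraries for both genes, by 5.59 and 5.13 on the log2 scale. Clec4d, a lectin of monocytes, overlapped, at up to 0.776 ppm in CD45-poor and 0.770 to 9.74 in CD45-rich. Ly6c2, a marker of blood monocytes, did not overlap but differed by only 1.35.

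Among the 15 leading genes of the CD45-rich side were Retnla, Fcrls, Ccr2, Ccl9, Lilrb4a, Lilrb4b, Lyz1, Mrc1, Cd163, Dok2, Tnip3, Nfam1, Lyz2 and Ear2, with log2 differences from 7.17 to 5.32. Retnla, a secreted protein of alternatively activated macrophages, was at 0.821, 0.931 and 0.220 ppm in the CD45-poor libraries. Its CD45-rich values were 267, 247, 118 and 375. The lowest CD45-poor value, 0.220 ppm, rested on 3.00 reads, so the size of the Retnla difference is the least certain of the 15. Fcrls, a receptor-like gene of resident macrophages, was at 1.82, 3.10 and 1.32 against 225, 259, 234 and 259.9, so its CD45-rich values were nearly level. Ccr2, the chemokine receptor that brings monocytes into tissue, was at 2.34, 22.0 and 15.1 against 386, 581, 1147 and 883.

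The leading genes did not follow the genotype alike. On the CD45-poor side control 4F lay below both knockouts for 11 of the 15, with the mean of the knockouts 0.429 to 13.6 times its level (median 3.51). Also for 11 of the 15, both CD45-rich knockouts lay above both CD45-rich controls, as for Ccr2, and for 2 they lay below. Cd163, a scavenger receptor for haemoglobin, was one of the latter, at 198 and 247 ppm in control 4M and 7F and at 103 and 155 in Zfp750_KO 3F and 6F. Lyz1, a lysozyme gene, was the other, at 185 and 248 against 80.9 and 53.2. Lyz1 and Lyz2 are near-identical, as are Lilrb4a and Lilrb4b, and the counting could have split reads between such copies, so their separate levels are uncertain. Both knockouts exceeded both controls on the CD45-rich side in 37.1% of all tested genes and in 76.0% of the 939 genes apart and higher in CD45-rich. Control 4F lay below both CD45-poor knockouts in 39.1% of all tested genes and in 67.3% of those 939. The leading genes thus had nearly the shares of all genes apart in this direction.

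**Figure D2:**
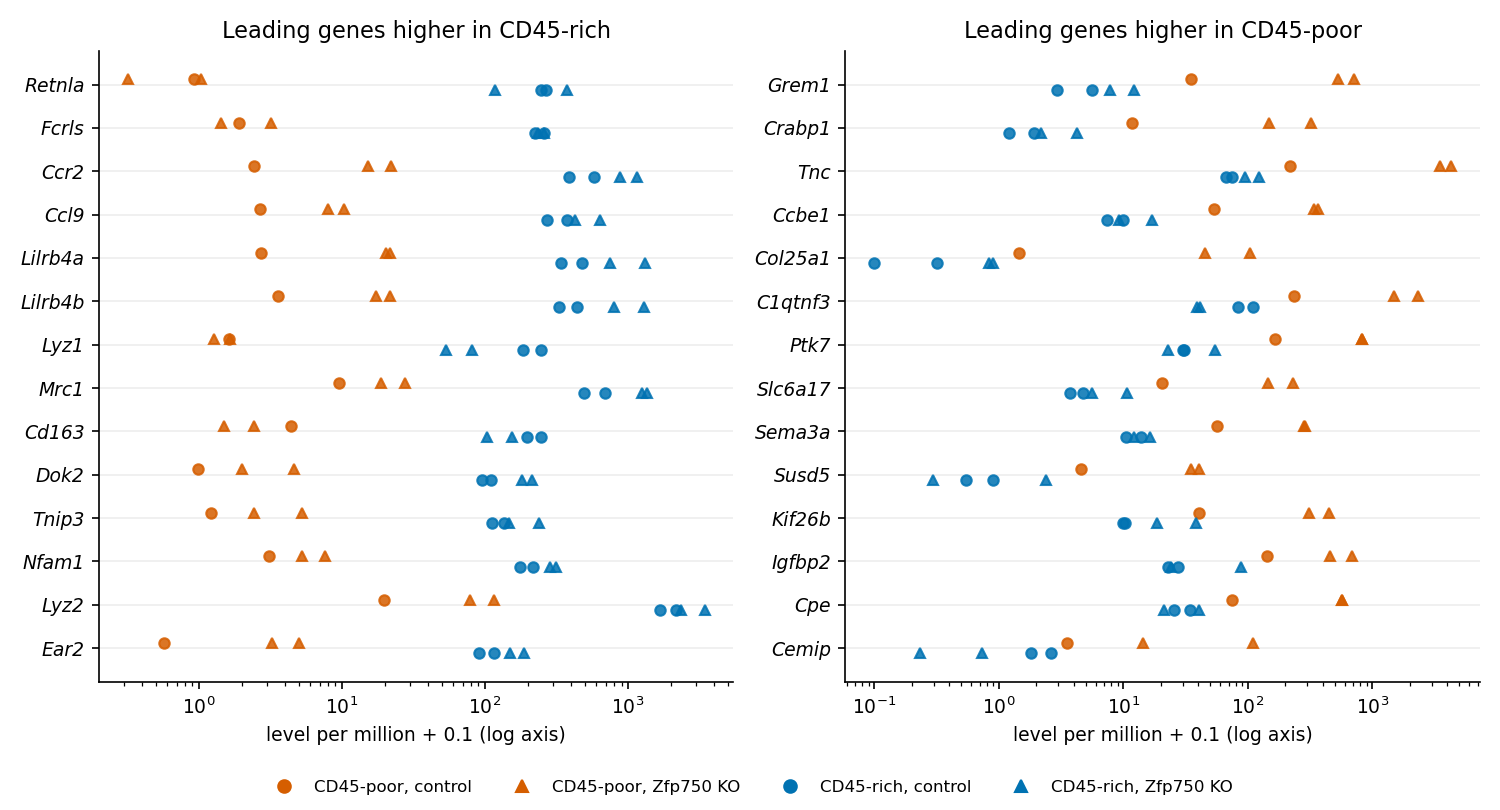
Level of leading genes in each direction, ppm plus 0.1 on a log axis. Orange symbols are CD45-poor and blue symbols CD45-rich libraries, circles are controls and triangles Zfp750 knockouts. In both panels the orange and blue symbols do not overlap, and in the right panel the orange circle of control 4F lies below both orange triangles for every gene shown.

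MHC class II molecules display peptides to T helper cells, and dendritic cells, macrophages and B cells make them. All 11 class II genes were higher in every CD45-rich than in every CD45-poor library, and 9 were apart (median 4.69). Cd74, the invariant chain that escorts class II molecules, was at 72.7, 459 and 224 ppm in the CD45-poor libraries and at 5330.0, 6451, 7799.5 and 8943 in the CD45-rich ones. H2-Ab1, a class II beta chain, was at 27.4, 202 and 83.2 against 1988, 2388, 3096 and 3071. Ciita, the activator of class II transcription, was at 2.58, 18.8 and 8.79 against 173, 205, 379 and 329. H2-Oa and H2-Eb2, which were low everywhere, were the only members under a log2 difference of 2, at 1.64 and 1.74. Control 4F was the lowest library for all 3 genes with values just given. The summed class II level was 164 to 1038 ppm in CD45-poor and 11197 to 18181 ppm in CD45-rich libraries.

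Since the class II genes rose and fell as a block over the libraries, their promoters were read for the Y box, the site of the factor NF-Y that class II promoters are known to share. The letters searched were CTGATTGG on both strands, in the 250 bases before and 50 bases after each start site in the RefSeq promoter table (build GRCm38.p6). Of the 11 genes, 8 were in the table, and 4 held the motif: H2-Aa, H2-Eb1, H2-Eb2 and H2-Oa. Only exact matches were counted. Promoters of H2-DMb1, H2-DMb2 and H2-Ob held TGATTGG without the leading C, so a gene without a match may still have a Y box. It was found in 4.10% of all 32851 promoters and in 4.70% of the genes of the table. Of 3 other motifs searched in the same way, GAGGAAGT (PU.1 type) and TGTGGTTT (RUNX type) were in none of the 8 genes and TGAGTCA (AP-1) was in H2-DMa, against 3.20%, 1.78% and 5.20% of all promoters. The exact letters CTGATTGG were not found in the leading genes that were in the table, 11 of CD45-rich and 12 of CD45-poor. Among these, PU.1 type letters were in Retnla and Tnip3, RUNX type letters in Lyz2 and C1qtnf3, and AP-1 letters in Igfbp2, Slc6a17 and Susd5. The 130 bases before the start site of the 4 class II genes with an exact match are shown. The capitals, the Y box, sit in the same orientation and within 103 bases of the start. The windows are chr17:34287824-34287953 on the minus strand for H2-Aa, chr17:34305737-34305866 on the plus strand for H2-Eb1, chr17:34325545-34325674 on the plus strand for H2-Eb2 and chr17:34092249-34092378 on the plus strand for H2-Oa.
H2-Aa: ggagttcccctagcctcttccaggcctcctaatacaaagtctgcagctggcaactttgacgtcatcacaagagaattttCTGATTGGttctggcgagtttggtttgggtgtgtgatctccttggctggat
H2-Eb1: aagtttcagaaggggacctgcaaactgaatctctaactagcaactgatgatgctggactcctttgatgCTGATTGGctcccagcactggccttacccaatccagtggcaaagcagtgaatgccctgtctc
H2-Eb2: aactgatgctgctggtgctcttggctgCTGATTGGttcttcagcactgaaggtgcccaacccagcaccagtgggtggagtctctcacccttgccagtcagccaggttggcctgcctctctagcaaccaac
H2-Oa: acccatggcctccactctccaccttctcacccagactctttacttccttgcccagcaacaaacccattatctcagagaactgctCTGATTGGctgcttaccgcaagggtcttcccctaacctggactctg
The first base of the box lies 51 bases before the start site in H2-Aa, 62 in H2-Eb1, 103 in H2-Eb2 and 46 in H2-Oa. H2-Aa and H2-Eb1 were among the genes that differed most, at 25.6 to 150.4 against 1406 to 2419 ppm and at 24.7 to 156 against 1871 to 3119.8. H2-Eb2 and H2-Oa, with the same 8 letters, stayed at 4.11 ppm or less in all libraries. A match is a description of the letters and not a binding site measured here.

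Dendritic cells carry antigen to lymph nodes, and Langerhans cells are their epidermal counterpart. Of 19 tested dendritic and Langerhans genes, 16 were apart and higher in CD45-rich (median 3.33). Mgl2, a lectin of dermal dendritic cells and macrophages, was at 4.92, 20.6 and 9.67 ppm in CD45-poor and at 281, 359.6, 480.1 and 573 in CD45-rich. Cd207, the langerin gene of Langerhans cells, was much lower, at 0.352, 2.09 and 2.27 against 9.13, 10.9, 18.3 and 15.4. Batf3, a factor needed by cross-presenting dendritic cells, was at 0.293 to 0.388 against 11.8 to 13.4, and in it neither control nor knockout stood apart within a side. Epcam overlapped and Fscn1 was higher in CD45-poor (log2 difference -0.64), and both are also made by other cell types of skin.

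Mast cells, which store histamine and proteases in granules, followed the same split. Of 13 tested genes, 11 were apart and higher in CD45-rich (median 3.07). Mcpt4, a chymase, was at 1.70, 24.0 and 22.1 ppm in CD45-poor and at 126, 200.2, 301 and 247 in CD45-rich. Kit, the stem cell factor receptor, was at 6.57, 11.3 and 19.9 against 50.9, 86.5, 145 and 100.1. Control 4F was the lowest library for both. Fcer1a and Tph1 overlapped, at 0 to 5.20 ppm in CD45-poor and 0 to 19.9 in CD45-rich.

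T cells showed a smaller and less even difference. Of 28 tested T cell genes, 9 were apart and higher in CD45-rich, 15 in all did not overlap in that direction, and 2 did not overlap with CD45-poor higher (median 1.68). Over all tested genes the shares without overlap were 30.8% and 13.8% in these directions. Il7r, the receptor for interleukin 7, was at 0.0586, 5.04 and 7.62 ppm against 21.9, 25.4, 104 and 55.7. Foxp3, the factor of regulatory T cells, was at 0.449, 2.03 and 2.06 against 4.36, 5.77, 22.6 and 21.2. Cd3e, part of the T cell receptor complex, was at 0.352, 4.81 and 4.62 against 8.03, 9.53, 43.9 and 17.6. For all 3 genes the CD45-rich knockouts lay above the CD45-rich controls, and the CD45-poor knockouts above control 4F. Thy1 and Bcl11b went the other way, Thy1 at 586 to 673 ppm in CD45-poor and 204 to 241 in CD45-rich, and Thy1 is also a fibroblast gene and Bcl11b a keratinocyte gene. The summed T cell level overlapped, at 1058 to 1170 against 580 to 1298 ppm. Without Thy1 it was 448 to 498 against 359 to 1082.

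B cell and neutrophil lists had few members above the filter. Of 14 B cell and plasma cell genes in the table, 6 passed the filter, of which Ighm was apart and higher in CD45-rich (3.34 to 7.15 against 28.8 to 37.5 ppm) and Sdc1, which keratinocytes also make, was apart in the other direction. Ms4a1, which encodes CD20, a defining B cell gene, reached at most 1.25 ppm. Without Sdc1 the summed level was 9.54 to 13.7 ppm in CD45-poor and 39.0 to 58.5 in CD45-rich libraries. Of 6 tested neutrophil genes only Csf3r, the receptor for granulocyte colony stimulating factor, was apart, at 0.117, 1.55 and 1.32 against 8.03, 11.3, 70.1 and 35.3. The median of the list was 0.09, and it was negative with the values as deposited or without control 4F, Zfp750_KO 3F or Zfp750_KO 6F. Without Mmp9 and Lcn2, which other skin cells also make, the median was 0.76 and the summed level 0.352 to 13.3 ppm in CD45-poor against 10.6 to 92.3 in CD45-rich. S100a8, a defining neutrophil gene, stayed at 3.72 ppm or less. Mmp9, a matrix protease, was highest in the CD45-poor knockouts, at 219 and 109 ppm, against 0.879 in control 4F and 9.95 to 11.7 in CD45-rich. Among cytotoxic and innate lymphoid genes 2 of 14 were apart, Klrk1 and Klrd1, both higher in CD45-rich (median 1.67). The receptor Klrk1 was at 0.293 to 2.71 against 14.0 to 43.0.

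Set against the general leukocyte level of the same library, the macrophage sum was 172% to 262% in CD45-poor and 183% to 220% in CD45-rich libraries. The mast cell sum was 22.3% to 43.8% and 22.8% to 28.4% of it. Both ranges overlapped between the sides. The class II sum was 156% to 267% in CD45-poor and 293% to 470% in CD45-rich, without overlap. In the other direction, also without overlap, the dendritic and Langerhans sum was 63.5% to 192% in CD45-poor against 30.0% to 45.3% in CD45-rich, and the cytotoxic and innate lymphoid sum 10.7% to 31.1% against 4.35% to 5.28%. The T cell sum was 272% to 1342% against 21.5% to 24.3%, the B cell sum 72.7% to 789% against 1.90% to 5.61% and the neutrophil sum 2.65% to 63.7% against 0.840% to 1.78%. These lists hold members that other skin cells make, such as Epcam, Thy1, Sdc1 and Mmp9, and some ratios rested on them. Without Epcam and Fscn1 the dendritic and Langerhans sum was 29.9 to 107 ppm in CD45-poor and 977 to 1718 in CD45-rich libraries. Relative to the general leukocyte sum its range then overlapped between the sides, as did that of neutrophils without Mmp9 and Lcn2. The T cell ratio without Thy1 and the B cell ratio without Sdc1 still did not overlap. In control 4F, however, the T cell sum without Thy1 was 482 ppm with Il7r at 0.0586 and Cd2 at 0.352. It still held Bcl11b, also a keratinocyte gene, and is not a measure of T cells alone. No member was left out of the cytotoxic and innate lymphoid sum. That sum was 61.9 and 100 ppm in Zfp750_KO 1M and 2M, with Klrk1 at 1.47 and 2.71, so it too rested mostly on other members. Members left out were chosen after the data were seen. Each of these shares is a ratio of summed levels of unlike genes, and only its change from library to library has a meaning.

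Among inflammatory cytokines and chemokines 7 of 27 were apart and higher in CD45-rich and 1 in CD45-poor (median 0.40). Il1b, a cytokine of activated macrophages, was at 2.93, 22.3 and 20.2 ppm against 135, 212, 778 and 484. The other 6 were Ccl9, Ccl4, Ccl3, Il10, Tnf and Cxcl2. Il34, a ligand of the macrophage growth factor receptor Csf1r, was the one apart in the other direction, at 7.03, 24.4 and 33.0 against 3.25 to 4.62. Of 24 interferon response genes, Oas1a and Oas2 were apart and higher in CD45-rich (median of the list 0.61). Of 20 lysosomal genes, Ctsc, a protease of immune cell granules, was apart and higher in CD45-rich, at 56.7 to 151 against 335 to 822. Gpnmb was apart and higher in CD45-poor, at 106 to 307 against 31.0 to 51.8. Over all tested genes 5.18% were apart with CD45-rich higher and 1.02% with CD45-poor higher, so the lysosomal count in the CD45-rich direction was near that share.

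**Figure D3:**
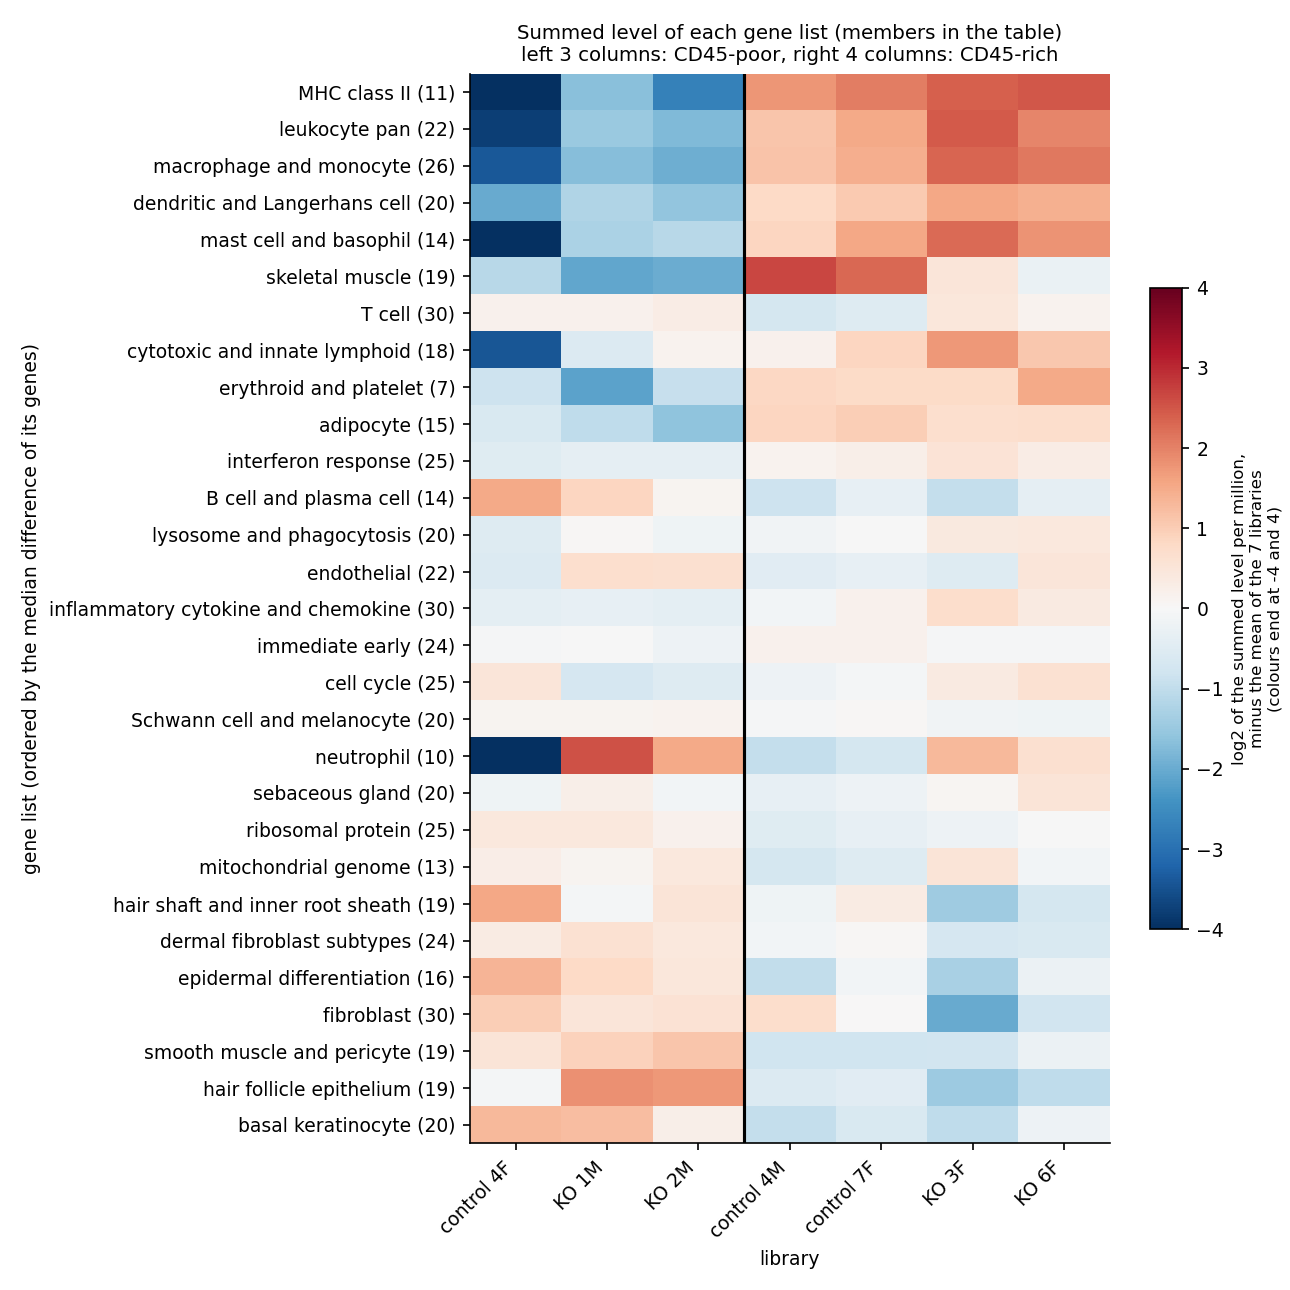
Summed level of 29 gene lists in each library, as log2 ppm minus the mean over the 7 libraries (red higher, blue lower, with colours ending at -4 and 4). Columns left of the black line are CD45-poor and right of it CD45-rich, and the number after each name counts the members in the table. The 5 uppermost lists, all of leukocyte or class II genes, are blue in the 3 left columns and red in the 4 right columns.

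Genes of basal keratinocytes, the dividing cells at the base of the epidermis, took a larger share of the CD45-poor libraries. Of 20 basal keratinocyte genes, 10 were apart and higher in CD45-poor, 17 did not overlap in that direction and none in the other (median -2.01). The share of all tested genes that did not overlap was 13.8% in that direction and 30.8% in the other. Krt5, a keratin of the basal epidermal layer, was at 1112, 909 and 361 ppm in control 4F, Zfp750_KO 1M and Zfp750_KO 2M, and at 83.5, 128, 67.5 and 158 in the CD45-rich libraries. Krt14, its partner keratin, was at 372, 608 and 206 against 48.4, 57.2, 40.1 and 156. Col17a1, which anchors basal cells to the basement membrane, was at 198, 192 and 89.3 against 15.4, 25.1, 11.9 and 29.0. Zfp750_KO 2M was the lowest CD45-poor library for all 3 genes and still lay above every CD45-rich library. Krt15, Cdh1 and Dst overlapped.

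Genes of later epidermal differentiation were low, and none of 11 was apart (median -1.32). The summed level of the list was 82.9 to 155 ppm in CD45-poor and 24.8 to 56.8 in CD45-rich libraries, without overlap. Krt10, a suprabasal keratin, was at 11.0, 2.25 and 8.79 ppm against 1.32, 2.61, 0.523 and 4.62 and overlapped. Of 17 tested hair follicle genes, Krt6a, Krt17 and Lgr6 were apart and higher in CD45-poor (median -1.69). In that direction 9 did not overlap, beside 13.8% of all tested genes. Lrig1, whose promoter drives the recombinase, was at 119, 121 and 134 against 44.9, 42.1, 27.8 and 42.7. Its levels on the 2 sides did not overlap, and the difference of -1.66 was below the size set for being apart. Sebaceous gland genes showed little difference (none of 16 apart, median -0.04, with a positive median without control 4M or without Zfp750_KO 3F). Of the 15 hair shaft and inner root sheath genes tested, Msx2 alone was apart (median -0.83).

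Collagen and other fibroblast transcripts were abundant on both sides. None of 29 tested fibroblast genes was higher in every CD45-rich library, 13 were higher in every CD45-poor library, 16 overlapped, and Lum and Col6a1 were apart (median -1.35). Over all tested genes 30.8% did not overlap with CD45-rich higher and 13.8% with CD45-poor higher. Col1a1, the main collagen of dermis, was at 81016, 39999 and 42613 ppm in CD45-poor and at 72863, 38351, 5483 and 23347 in CD45-rich. Its means of 54542 ± 22964 (SD, n = 3) and 35011 ± 28588 (SD, n = 4) differed by less than their spread. Control 4M, with high Ptprc, had more Col1a1 than both CD45-poor knockouts, while Zfp750_KO 3F had the least of all. The summed fibroblast level was 150305 to 215752 ppm in CD45-poor and 26680 to 177467 in CD45-rich, so fibroblast RNA was a large part of 6 libraries and the smallest in Zfp750_KO 3F. Lum, a proteoglycan that spaces collagen fibrils, was at 2642, 3011 and 2749 against 995, 943, 402 and 303.

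Among genes of specialised dermal fibroblasts the pattern was mixed. Of 23 tested genes, 4 were apart and higher in CD45-poor: Crabp1, Apcdd1, Rspo4 and Coch (median of the list -1.02). Apcdd1, an inhibitor of Wnt signalling, was at 805, 703 and 862 ppm against 161, 192, 37.6 and 75.0. Coch, a secreted matrix protein, was at 438, 588 and 595 against 77.6, 84.1, 169 and 159.6. On the CD45-rich side Apcdd1 was lower and Coch higher in both knockouts than in both controls. Dlk1 and Anxa3 were higher in every CD45-rich library, by 1.54 and 1.81.

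Contractile genes followed the CD45-poor side. Of 18 tested smooth muscle and pericyte genes, Tagln, Actg2, Mylk, Cnn1 and Acta2 were apart and higher in CD45-poor (median -1.44). In that direction 12 did not overlap, beside 13.8% of all tested genes. Tagln, an actin-binding protein of smooth muscle and myofibroblasts, was at 60.5, 177 and 168 ppm against 10.3, 8.32, 29.8 and 39.2. Acta2, smooth muscle actin, was at 188, 294 and 282 against 35.9, 37.6, 85.1 and 121. The knockouts lay above the controls on both sides for both genes. Abcc9 and Kcnj8, channel genes of pericytes, went the other way, by 1.28 and 1.04.

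Among the 15 leading genes of the CD45-poor side were Grem1, Crabp1, Tnc, Ccbe1, Col25a1, C1qtnf3, Ptk7, Slc6a17, Sema3a, Susd5, Kif26b, Igfbp2, Cpe and Cemip, with log2 differences from -5.03 to -3.26. Grem1, a secreted inhibitor of bone morphogenetic proteins, was at 34.6, 714 and 534 ppm in control 4F, Zfp750_KO 1M and Zfp750_KO 2M, and at 2.86, 5.52, 7.75 and 12.0 in the CD45-rich libraries. Tnc, the matrix protein tenascin C, was at 218, 4279.7 and 3524 against 66.7, 73.9, 95.5 and 122. Crabp1, a retinoic acid binding protein, was at 11.6, 324 and 147 against 1.10, 1.81, 2.09 and 4.16. Control 4F lay above all CD45-rich libraries and far below both CD45-poor knockouts for these genes. It was below both knockouts for all 15 leading genes, with the mean of the knockouts 2.36 to 55.3 times its level, compared with 116 of the 185 genes apart in this direction and 39.1% of all tested genes. Much of the distance between the sides for the leading CD45-poor genes was thus carried by Zfp750_KO 1M and 2M.

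Some cell types did not follow CD45. Endothelial genes were not apart (0 of 22, median 0.44). Pecam1, an adhesion molecule of vessel lining, was at 15.1 to 29.2 ppm against 26.2 to 53.8 and overlapped. Genes of Schwann cells and melanocytes were not apart (0 of 17, median 0.13, and -0.13 with the values as deposited). Skeletal muscle genes were apart in 6 of 14 with CD45-rich higher (median 2.02), and they did not follow the genotype alike. Acta1, skeletal muscle actin, was at 10.4, 4.19 and 2.56 against 311, 207, 29.1 and 15.6. Myh4, a fast myosin, was at 0.997, 0.233 and 0.147 against 45.1, 34.3, 4.40 and 2.24. For both the CD45-rich controls stood highest. Neb, also apart, was at 3.22, 3.18 and 1.76 against 32.3, 34.8, 46.2 and 29.0, with controls and knockouts of the CD45-rich side overlapping. Lpl, a lipase of fat cells and macrophages, and Car3 were apart and higher in CD45-rich among 8 tested adipocyte genes, while Adipoq, the defining adipocyte gene, stayed at 1.06 ppm or less. Pf4, a platelet chemokine that macrophages also express, was at 0.466 to 1.06 against 19.2 to 39.4, while the red cell genes Alas2 and Slc4a1 stayed at 0.626 or less.

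Handling and RNA quality genes gave smaller differences. Of 24 immediate early and heat shock genes, Hspa1a, Hspa1b and Fosl1 were apart and higher in CD45-poor, beside 1.02% of all tested genes. With CD45-rich higher 7 did not overlap, near the 30.8% of all tested genes, and the median was 0.28. The heat shock gene Hspa1a was at 889, 739.5 and 1334 ppm against 224 to 246, and Hspa1b, a near-identical copy, was at 1026, 979.5 and 1907 against 167 to 200.4. Fos, an immediate early gene, was at 1624 to 2723 against 2798 to 3805. None of 25 ribosomal protein genes was apart, and 11 did not overlap with CD45-poor higher, beside 13.8% of all tested genes (median -0.49). Their summed level was 2931 to 3440 against 1872 to 2585 ppm. Of 13 mitochondrial genes, mt-Nd5 and mt-Nd6 were higher in every CD45-rich library and mt-Nd3, mt-Co3 and mt-Atp6 in every CD45-poor library. Among protein-coding genes the median difference was 0.0033 in the shortest and 0.18 in the longest of 5 equal groups by spliced length. The part of these values in the differences between the sides was not tested. Cell cycle genes were not apart (0 of 25, median 0.25).

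Zfp750 itself, a transcription factor of epidermal differentiation, was the check of the genotype labels. It was at 25.4 ppm in control 4F and at 3.65 and 3.44 in the CD45-poor knockouts. On the CD45-rich side it was at 4.29 and 5.52 in control 4M and 7F and at 0.942 and 2.84 in Zfp750_KO 3F and 6F. The knockouts were lower than the controls within each side, but the CD45-poor knockouts overlapped with the CD45-rich controls. A limma fit of all 18140 genes, with genotype and side as terms, gave a log2 difference of -1.68 ± 0.35 (SE) with an adjusted p of 0.0222. A two-sided exact permutation of the genotype within the sides gave p = 0.0556, the smallest value that its 18 arrangements allow. With log2 Ptprc in place of the side, limma gave -1.26 with an adjusted p of 0.0768. The call also ended without control 4F, control 4M, control 7F or Zfp750_KO 3F, with adjusted p from 0.0102 to 0.0829 over all libraries left out in turn. Zfp750 was low relative to its level in control 4F in every CD45-rich library, as were the keratinocyte genes above.

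With the side as a term, limma called 732 genes (4.04%) higher and 495 (2.73%) lower in the knockouts at an adjusted p of 0.05. Without any term for composition it called 0 in either direction, with 1049 genes at an unadjusted p under 0.05. The split of 732 and 495 became 579 and 529 with the values as deposited and 523 and 539 with upper quartile scaling. Leaving out control 4M left 194 and 167, control 7F 350 and 168, and Zfp750_KO 3F 333 and 213, while leaving out control 4F gave 1338 and 1026. Ptprc was higher in the knockouts within each side, and the side term does not adjust for that difference. Of the 22 general leukocyte genes 18 rose, with a median of 1.40, and of 26 macrophage genes 15 rose and Cd163 fell. With log2 Ptprc in place of the side, 178 genes (0.981%) were higher and 330 (1.82%) lower. None of the 22 general leukocyte genes was then called in either direction (median 0.04). Ptprc is itself a leukocyte gene, so that outcome was largely fixed in advance. It cannot tell leukocyte content from a difference of genotype within leukocytes. Of the 732 higher calls, 164 were shared between the fits, and of the 495 lower calls 254. Calls that were made with the side term alone are thus not separated from leukocyte content by these fits.

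Genes that passed with the side and kept their call with log2 Ptprc included Osm, a cytokine of macrophages and T cells. It was at 0.117 ppm in control 4F against 12.5 and 7.40 in the CD45-poor knockouts, and at 10.5 and 16.6 against 113 and 103 on the CD45-rich side. The knockouts exceeded the controls on each side, by 3.07 ± 0.23 (SE) on the log2 scale (limma adjusted p = 0.00138), and by 2.00 with log2 Ptprc (adjusted p = 0.00641). Cxcl5, a neutrophil chemokine, rose by 2.91 ± 0.25, from 0.201 ppm or less in all controls to 4.88 to 9.97 in the knockouts. Nrg1, a ligand of ErbB receptors, rose by 3.00 ± 0.32, from 4.95 to 7.39 in the controls to 32.1 to 96.2 in the knockouts. The other 5 of the 8 largest rises were Mmp13, Mmp12, Cbln1, Fcgr2b and Clec4n, and all 8 kept an adjusted p under 0.05 with log2 Ptprc, with Fcgr2b the closest at 0.0478. For Mmp13, a collagenase, the call ended in 7 of 18 alternatives, among them those without control 4M, control 7F or Zfp750_KO 3F, and its rise was from 1.47 to 651 and 266 on the CD45-poor side and from 2.42 and 2.11 to 16.4 and 8.18 on the CD45-rich side. For Fcgr2b, an inhibitory antibody receptor, it ended without control 4M and without Zfp750_KO 3F.

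The 8 largest falls were Cyp2f2, Cdh4, Scara5, Cpz, Atp2a1, Acta1, Oxtr and Opcml. Cyp2f2, a cytochrome P450, was at 283 ppm in control 4F against 8.61 and 4.25 in the CD45-poor knockouts, and at 41.6 and 56.2 against 3.98 and 8.77 on the CD45-rich side. It fell by 3.82 ± 0.49 (limma adjusted p = 0.00363). Scara5, a ferritin receptor of fibroblasts, was at 987 against 143 and 52.1, and at 462 and 519 against 102 and 111, and it fell by 2.71 ± 0.35. For both genes all controls lay above all knockouts. Atp2a1, a calcium pump of fast muscle, and Acta1 belong to skeletal muscle, of whose 14 tested genes 9 fell and none rose. The call of Oxtr, the oxytocin receptor, ended without control 7F and without Zfp750_KO 3F.

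Genotype differences were not the same on the 2 sides. A limma test of the genotype by side term called 482 genes (2.66%) whose knockout minus control difference was more positive on the CD45-poor side and 184 (1.01%) for which it was more negative. Of the 666 together, 349 and 161 had opposite signs on the 2 sides. The CD45-poor side had 1 control, control 4F, which is F while both knockouts there are M, so this term cannot be told apart from sex or from that single library, whose spread is assumed to be like that of the other groups. Ddx3y, Uty, Eif2s3y and Kdm5d of the Y chromosome and Xist were accordingly among the 16 named genes. The count was 166 without control 4M and 241 without control 7F.

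Outside the sex-linked genes, Sfrp2, Mmp9, Pla1a and Unc5c had the most positive differences on the CD45-poor side among the named genes. Sfrp2, a secreted modulator of Wnt signalling, was at 5.86 ppm in control 4F against 275 and 150.1 in the knockouts, and at 137 and 159.8 in the CD45-rich controls against 24.8 and 33.9. It thus rose on the CD45-poor side and fell on the CD45-rich side, with a difference of 7.21 ± 0.42 (SE, limma adjusted p = 2.72e-05). Mmp9 was at 0.879 against 219 and 109 on the CD45-poor side and nearly level, at 9.95 to 11.7, on the CD45-rich side. Of 29 fibroblast genes 14 had a more positive difference on the CD45-poor side and none a more negative one, among them Col6a1, Col6a2, Col6a3 and Fbln2. Medians of the list were 0.13 on the CD45-poor and -1.17 on the CD45-rich side. Summed fibroblast levels, which a few collagens dominate, were lower in the knockouts on both sides, at 110053 and 177467 ppm in the CD45-rich controls against 26680 and 63102 in the knockouts, and at 215752 in control 4F against 150305 and 160563.

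In the other direction stood Slc7a11, a cystine transporter, at 38.3 ppm against 9.78 and 11.4 on the CD45-poor side and at 14.1 and 27.5 against 129 and 69.8 on the CD45-rich side (-3.97 ± 0.52, limma adjusted p = 0.00214). Flrt3, an adhesion protein, was at 259 against 109 and 67.8, and at 62.3 and 93.3 against 263 and 249. Both genes were lower in the CD45-poor knockouts and higher in the CD45-rich knockouts than in the controls of the same side. Of 25 cell cycle genes, 10 had a more negative difference on the CD45-poor side and none a more positive one. Mki67, a marker of dividing cells, was at 67.2 against 32.0 and 34.7, and at 52.8 and 58.8 against 106 and 110.3.

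**Figure D4:**
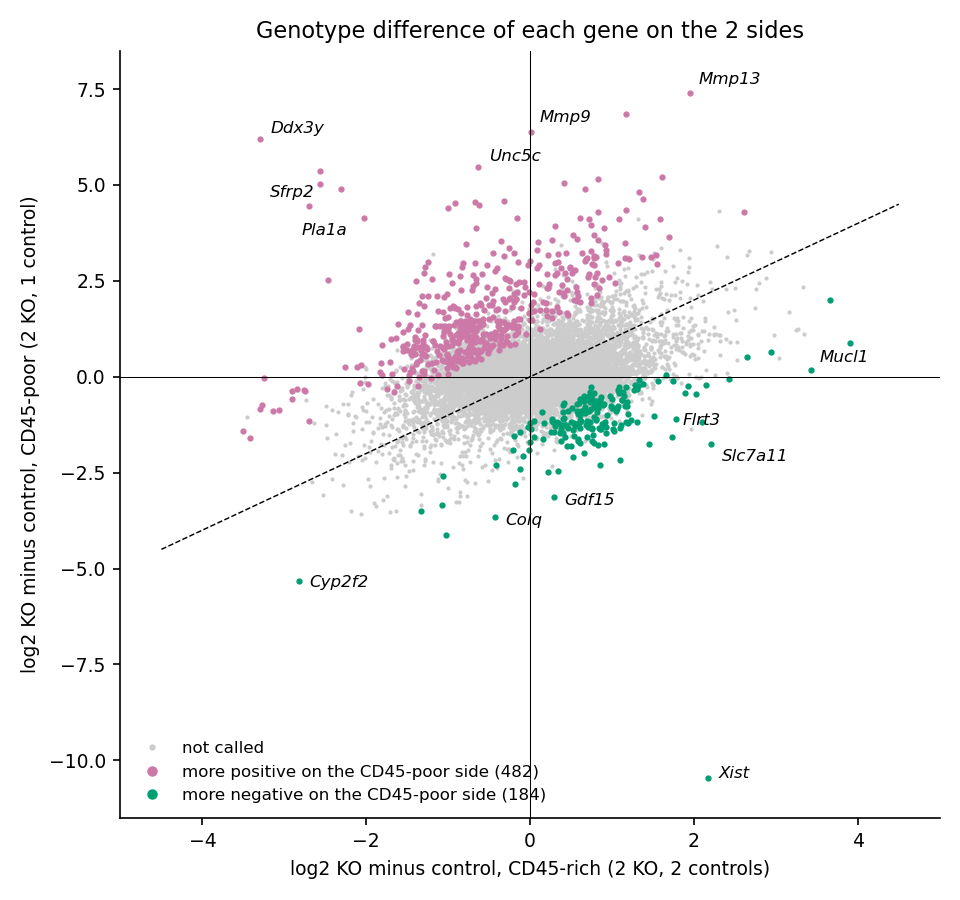
Knockout minus control log2 difference of each tested gene on the CD45-rich side (horizontal axis, 2 knockouts and 2 controls) and on the CD45-poor side (vertical axis, 2 knockouts and 1 control). Pink and green points are genes with an adjusted p under 0.05 for the difference between the sides, grey points are the rest, and the dashed line marks equal differences. Sfrp2 lies in the upper left at -2.31 and 4.90, and Xist, a sex-linked gene, at the bottom right.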

How the data were processed

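RNA of the 7 sorted samples was extracted with PureLink and made into NEBNext Ultra II libraries, per the labels' protocols. The authors deposited 1 table of normalized counts per gene, treated here as a signal because its values are fractional, and TopHat2 2.1.0 and Partek 9.0.20.0202 are named in the submitters' processing notes. For the normalization method, genome build and strand setting the entry is: not given in the sources used here. Between 78.0% and 79.6% of a library's values under 200 reads were whole multiples of 1 step within 0.02 reads, so whole reads were not recovered and no count model was used. Normalization by the authors and rescaling here can both shift small differences.

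Values were scaled to a column total of 1000000 and given in ppm. Genes at 1 ppm or more in at least 3 libraries were kept, and log2(value + 1) was used. The sides were grouped by Ptprc in the same libraries, so they are described without a test. Genotype was taken from the column names and tested with limma 3.58.1 in R 4.3.3 (lmFit and eBayes with trend, Benjamini-Hochberg over all genes, threshold 0.05), with the side as a term (4 residual degrees of freedom) or as a genotype by side term (3). Zfp750 was also tested by exact permutation within the sides. Python 3.11.15, numpy 2.4.6, pandas 2.3.3 and matplotlib 3.10.9 were used for the rest. On simulated data for 18140 genes the genotype fit found 81% of 100 genes changed by 1 on the log2 scale and 100% of those changed by 2, and 0.549% of its calls were false. The genotype by side fit found 91% of genes changed by 2, and 4.98% of its calls were false. The simulated noise was independent and of 1 size for all genes, and only genes with higher levels were changed. Spread that differs between genes and shared differences in cell content were not simulated. These rates therefore check the code and are not error rates of the real fits.

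Of 602 list entries 583 were in the table. Members and lists were chosen with earlier results of these data known. Genes are named if they mark the sides or the genotype (Ptprc, Cd74, Col1a1, Krt5, Zfp750, Lrig1), if they were the 15 largest non-overlapping differences in a direction with at least 20 ppm on the higher side, if they were up to 5 leading members of a list, or if they were the 8 largest called rises or falls of a limma fit with at least 5 ppm in the higher group. Predicted genes were left out. Other list members are named as examples chosen after their values were seen. The labels name separate mice but not which column is which, and a p-value speaks only to how these libraries vary. Alternatives were other scalings, pseudocounts, filters, covariates and weights, and each library left out in turn. Some genes are not reported here.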

Additional observations from a re-analysis of the deposited data

Results flagged for a closer look

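In 3 cases 1 library stood far from the others of its group, by the gap to its nearest neighbour relative to the range of the group. Chance marks about 1 in 20 groups in this way. Lrig1 was lowest in Zfp750_KO 3F among the CD45-rich libraries, at 27.85 ppm. Igfbp2, a carrier of insulin-like growth factors, was highest in Zfp750_KO 6F among the CD45-rich libraries, at 88.51. Cemip, which degrades hyaluronan, was highest in Zfp750_KO 1M among the knockouts, at 109.5.

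The genotype difference was not the same on the 2 sides for 482 genes with a more positive and 184 with a more negative value on the CD45-poor side, by limma's test of the genotype by side term. Among the named genes the CD45-poor minus CD45-rich value was 9.498 for Ddx3y, 7.922 for Uty, 7.588 for Eif2s3y and 7.154 for Kdm5d, all of the Y chromosome, and -12.64 for Xist. These 5 follow the letters M and F of the libraries, except that control 4M also had Xist, at 278 ppm. The call of Uty ended in 4 and that of Eif2s3y in 6 of 10 alternatives.

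Among the other genes it was 7.207 for Sfrp2, 6.367 for Mmp9, 6.153 for Pla1a, a phospholipase, and 6.089 for Unc5c, a netrin receptor. Unc5c was at 1.76 ppm in control 4F, 134 and 108 in the CD45-poor knockouts and 0.628 to 2.31 in the CD45-rich libraries. In the other direction it was -3.974 for Slc7a11, -3.432 for Gdf15, a stress-induced cytokine, -3.313 for Flrt3, -3.268 for Arg2, an arginase, -3.259 for Dhrs9, -3.252 for Mucl1 and -3.219 for Colq. The call of Mucl1 ended in 7 of 13 alternatives, and that of Arg2 without control 4M or control 7F. All of these values rest on control 4F as the only CD45-poor control.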

How the results depend on the processing

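Genes apart and higher in CD45-rich numbered 939, and 1510 with a pseudocount of 0.25, 453 with a pseudocount of 5 and 2970 with a log2 difference of at least 1. They numbered 851 to 1054 with each library left out in turn. Genes apart and higher in CD45-poor numbered 185, and 303 with the values as deposited, 90 with a pseudocount of 5, 1011 with a log2 difference of at least 1 and 155 to 320 with libraries left out, the highest without control 4F. Genes higher in the knockouts with the side as a term numbered 732, and 178 with log2 Ptprc, 0 with no covariate, 1133 with the letter added and 194 to 1338 with libraries left out. Genes lower in the knockouts numbered 495, and 837 with array weights, 0 with no covariate and 167 to 1026 with libraries left out. Among the libraries left out, the lowest of these genotype counts came without control 4M and the highest without control 4F. The 666 genes of the genotype by side term became 166 without control 4M and at most 824 with another library left out, and the term could not be fitted without control 4F. Other covariates and array weights were not run for that term. For Zfp750 the log2 difference of -1.68 was no longer called with log2 Ptprc (-1.26), with no covariate (-1.46) or without control 4F, control 4M, control 7F or Zfp750_KO 3F, and it ranged from -2.07 to -1.11 with each library left out. Of the other gene differences 96 stayed within 1 SD of the value given and 12 did not, and of list medians 239 and 1. The cause of these changes was not tested. No paired analysis was possible because the column names do not carry the replicate numbers of the labels. Depth limits Retnla in CD45-poor libraries, where the lowest value stands for 3.00 reads.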
